A study of Mus musculus with 3 samples.

Results

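The prostaglandin and leukotriene receptor transcripts of group 2 innate lymphoid cells (ILC2s) were examined in RNA sequencing libraries of sorted cells. The set comprised 10 receptor genes, which were chosen by name and not by any measured value: Ptgdr, Ptgdr2, Ptger1, Ptger2, Ptger3, Ptger4, Ptgir, Cysltr1, Cysltr2 and Ltb4r1. Earlier results of these data were known when the set was chosen. All 10 had a row among the 27179 gene IDs of the count table. The study, whose title concerns the circadian clock of group 3 innate lymphoid cells (ILC3s) in the gut, provided 1 group of 3 ILC2 libraries, named here mouse 1, 2 and 3 after the number in each title. The design text gives 3 wild-type mice, the labels give the strain C57BL/6, and no treatment or engineered allele is listed. The sorting gate required KLRG1, CD127, CD90.2 and CD45 on the surface and rejected cells with B220, CD11c, CD11b, NK1.1, CD8, CD5 or CD3. Tissue, age, sex and hour of collection are not stated in the labels. No label ties a library to a named mouse, and the spread between libraries also holds variation from the sort and the amplification.

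Eicosanoids are lipid mediators made from arachidonic acid. Prostaglandins are made through cyclooxygenases and leukotrienes through 5-lipoxygenase, and each mediator acts on its own small set of G protein-coupled receptors. Receptors coupled to Gs raise cyclic AMP, those coupled to Gi lower it, and those coupled to Gq raise intracellular calcium. ILC2s are tissue lymphocytes that make type 2 cytokines, and in earlier work on these cells prostaglandin D2 and the cysteinyl leukotrienes were known as activating lipids, while prostaglandin E2 and prostacyclin were known as restraining ones.

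Libraries held 17819551 to 26374248 counts. Levels are given as CPM, which are counts per 1000000 of a library size scaled by TMM (trimmed mean of M values), or as RPKM, which are CPM per kb of annotated exon. Genes were compared mainly by RPKM, with counts, CPM and other gene lengths as further scales where named. A count of 0 allows up to 3 counts, or 0.115 to 0.171 CPM in these libraries, and such limits cover counting error only. All 12 ILC2 marker genes reached 1 CPM in each mouse, among them Gata3 (438 ± 76.4 CPM, SD, n = 3), the lineage regulator, and Il1rl1 (136 ± 52.9), the IL-33 receptor. Of 7 ILC3 markers 4 were also detected, with a summed level of 282 to 460 CPM per mouse, whereas Il23r and Il1r1 stayed below 1 CPM in every mouse and Ccr6 had 0 counts. In bulk libraries, fewer cells of a type and less RNA per cell cannot be told apart.

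Of the 10 receptors, 6 were detected, meaning at least 1 CPM in each of the 3 mice. Over all genes of the table the detected share was 31.1%. The 6 were the leukotriene receptors Cysltr1, Cysltr2 and Ltb4r1 and the prostaglandin receptors Ptgir, Ptger2 and Ptger4. Ptger1 was read in all mice but reached 1 CPM in 2 of 3, and Ptgdr, Ptgdr2 and Ptger3 had 0 counts in every library. A count of 0 in all libraries was found for 44.5% of all genes. The median over the 10 receptors was 3.83 RPKM, beside 0.0389 over the 24861 genes with an exon length and 5.44 over detected genes.

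**Figure D1:**
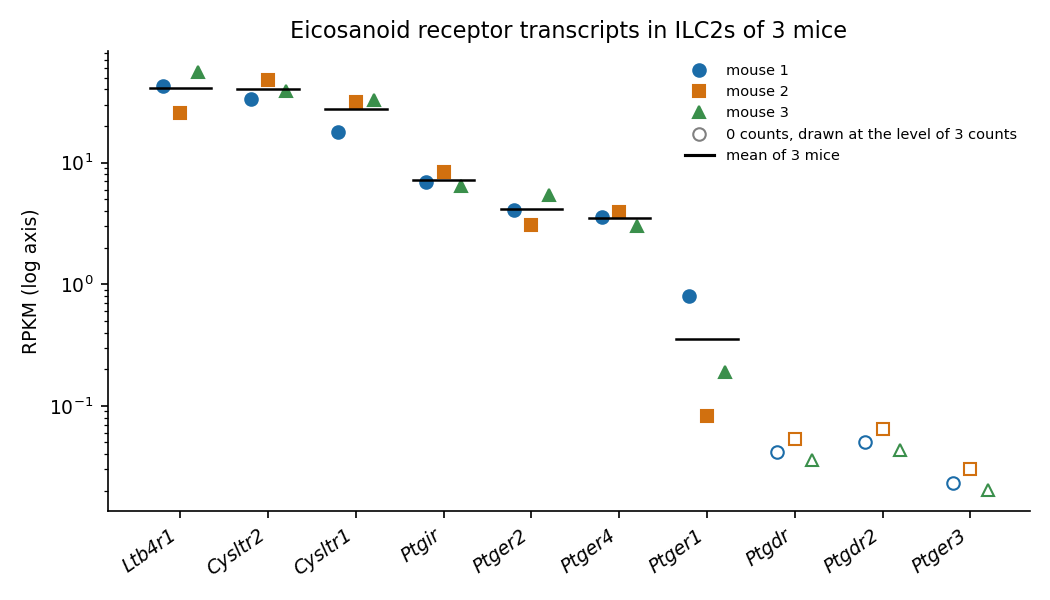
RPKM of the 10 receptors (log axis) in mouse 1 (circles), mouse 2 (squares) and mouse 3 (triangles), with the mean of 3 mice as a bar. Open symbols stand for 0 counts and are drawn at the level of 3 counts; the 3 leukotriene receptors lie between 18.0 and 56.0 RPKM, above all prostaglandin receptors in every mouse.

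To show the start regions of receptors read at high, middle and zero level, the 250 bases before the RefSeq transcription start (GRCm38.p6) are printed 5′ to 3′ on the gene's strand for Cysltr2 (chr14:73049115-73049364, minus strand), Ltb4r1 (chr14:55765712-55765961, plus strand), Ptger4 (chr15:5244188-5244437, minus strand) and Ptgdr2 (chr19:10936910-10937159, plus strand). Capitals mark CG dinucleotides. The Ptgdr2 window lies inside the span given for the gene (10924519 to 10942511), so it precedes a start within the gene and not its first base.
Cysltr2: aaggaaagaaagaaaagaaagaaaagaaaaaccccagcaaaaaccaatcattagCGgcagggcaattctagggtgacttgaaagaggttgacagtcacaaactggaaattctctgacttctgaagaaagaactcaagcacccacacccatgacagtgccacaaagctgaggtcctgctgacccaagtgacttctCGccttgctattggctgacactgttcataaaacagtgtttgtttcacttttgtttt
Ltb4r1: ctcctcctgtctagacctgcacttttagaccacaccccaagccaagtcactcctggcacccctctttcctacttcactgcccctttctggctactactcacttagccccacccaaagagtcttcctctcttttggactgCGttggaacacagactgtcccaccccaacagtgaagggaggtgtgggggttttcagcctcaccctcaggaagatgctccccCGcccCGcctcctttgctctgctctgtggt
Ptger4: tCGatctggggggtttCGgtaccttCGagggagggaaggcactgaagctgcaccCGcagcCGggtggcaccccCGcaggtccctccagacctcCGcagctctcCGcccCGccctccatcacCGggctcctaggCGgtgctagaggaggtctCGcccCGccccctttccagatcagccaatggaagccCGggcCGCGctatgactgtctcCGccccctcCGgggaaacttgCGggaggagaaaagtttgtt
Ptgdr2: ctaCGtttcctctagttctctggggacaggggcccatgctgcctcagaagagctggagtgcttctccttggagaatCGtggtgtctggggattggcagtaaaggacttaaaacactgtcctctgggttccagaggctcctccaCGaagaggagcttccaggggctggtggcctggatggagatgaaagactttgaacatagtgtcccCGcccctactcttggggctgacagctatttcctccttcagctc

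Such windows were found for 8 of the 10 receptors, without Ptger1 and Cysltr1. The Cysltr2 window held 2 CG dinucleotides, Ltb4r1 3, Ptger2 3, Ptgir 5 and Ptger4 19, beside a median of 6 over 32851 RefSeq windows. Among receptors without a count, Ptgdr held 2, Ptgdr2 4 and Ptger3 21. The Ptger3 window (chr3:157566626-157566875) ends past the start given for the gene (157566821), and that of Ptgdr2 lies inside its gene. Windows rich and poor in CG thus occurred both among receptors that were read and among those that were not. The motifs GATAAG (bound by GATA factors), AGGTCA (the half-site of ROR and REV-ERB receptors), TGACGTCA (the cyclic AMP response element) and CACGTG (the E-box), searched on both strands, had no match in the 8 windows. They are present in 6.55%, 14.0%, 1.55% and 6.02% of all windows, respectively. TGTGGT, the RUNX motif, was found in the Ltb4r1 window, where it forms the last 6 bases and is also present on the opposite strand as ACCACA, and in 14.0% of all windows. CCGCCC, the GC box, was found in the windows of Ltb4r1, Ptger4, Ptgdr2, Ptger3 and Ptgir and in 32.7% of all windows. A match of letters is a description and not a binding site.

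The leukotriene receptors were the highest members. Cysltr1, which encodes CysLT1, the receptor for leukotriene D4 that the drug montelukast blocks, had 92.6, 162 and 168 CPM in mice 1, 2 and 3. Mouse 1 was low and the other two were close to each other. Per exon length this was 27.4 ± 8.20 RPKM. Cysltr1 lies on chromosome X (106576509 to 106603679, GRCm38), and Gm5127, with 785, 546 and 827 counts, lies partly within its span but shares no exon with it.

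Cysltr2, which encodes the second cysteinyl leukotriene receptor CysLT2, had 95.3, 138 and 112 CPM in mice 1, 2 and 3, or 40.0 ± 7.50 RPKM. It was lowest in mouse 1 and highest in mouse 2. The gene lies on chromosome 14 (73025672 to 73049114). Across its end RefSeq places Gm9199, a transcribed pseudogene (73025603 to 73026890), and 562 of the 2872 GENCODE exon bases of Cysltr2 (19.6%) fall within that span. Gm9199 had 1072, 852 and 998 counts against 2160, 2426 and 2911 for Cysltr2, and how the counting divided reads of the shared stretch is not stated in the labels.

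Ltb4r1, which encodes BLT1, the high-affinity receptor for leukotriene B4 that guides leukocytes toward it, had 59.0, 35.6 and 78.0 CPM in mice 1, 2 and 3. It was lowest in mouse 2 and highest in mouse 3, with 2.19 times between them. Ltb4r1 has a short annotated transcript of 1394 exon bases, so per exon length it reached 41.3 ± 15.3 RPKM, beside 40.0 for Cysltr2. On the other scales Cysltr2 was the higher of the pair, at 115 CPM beside 57.6, 65.3 beside 41.3 per kb of the longest transcript and 124 beside 54.7 per kb of coding length. Its counting error was small beside this spread: the 95% Wilson interval of the unscaled counts per 1000000 was 32.5 to 38.0 in mouse 2 and 73.9 to 80.6 in mouse 3. Ltb4r2, the gene of the low-affinity receptor BLT2, ends 1895 bases upstream of Ltb4r1 on chromosome 14 (55757922 to 55764066, beside 55765962 to 55768492). It had 0, 0 and 9 counts, while Ltb4r1 had 1338, 626 and 2035.

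Ptgir, which encodes the Gs-coupled prostacyclin receptor IP, was the highest prostaglandin receptor per exon length. It had 23.2, 27.8 and 21.4 CPM in mice 1, 2 and 3, or 7.24 ± 0.975 RPKM. The values lay close together, with the highest 1.29 times the lowest. The gene lies on chromosome 7 (16906490 to 16910905), and none of its exons is shared with another gene.

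Of the 4 prostaglandin E2 receptors, the Gs-coupled pair EP2 and EP4 was detected. Ptger4 (EP4; chromosome 15, 5233399 to 5244187) had 23.7, 26.0 and 19.9 CPM in mice 1, 2 and 3, or 3.49 ± 0.465 RPKM. Ptger2 (EP2; chromosome 14, 44988111 to 45003820) had 21.1, 15.8 and 28.1 CPM, or 4.18 ± 1.19 RPKM. Of the 6648 exon bases of Ptger4, 1097 (16.5%) overlap exons on the opposite strand, those of Gm15937 and Ttc33. For Ptger2 this holds for 246 of 5193 (4.74%), and how the counting treated these bases is not known. The mice were in opposite order for the pair: Ptger4 was highest in mouse 2 and lowest in mouse 3, and Ptger2 was highest in mouse 3 and lowest in mouse 2.

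Ptger3, which encodes the mainly Gi-coupled EP3 (chromosome 3, 157566821 to 157644758), had 0 counts in every library over 5688 exon bases that no other gene shares. Ptger1, which encodes the calcium-raising EP1 (chromosome 8, 83666644 to 83672756), had 99, 8 and 27 counts, or 4.37, 0.455 and 1.04 CPM. Mouse 1 was far above the others. The library kit does not mark strand and most of the 5459 exon bases of Ptger1 are shared, so its level is uncertain.

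Both prostaglandin D2 receptors were without counts, and how the counting treated bases shared between genes is not known. Ptgdr2 (chromosome 19, 10924519 to 10942511) encodes CRTH2, which is Gi-coupled and in common use as an ILC2 marker, and 1613 of its 2644 exon bases are free of other exons. The other 1031 bases overlap exons of Ccdc86 on the opposite strand, which had 57, 62 and 352 counts. Ptgdr (chromosome 14, 44851235 to 44859375), which encodes the Gs-coupled DP1, has 2482 exon bases of its own and 705 shared with the antisense Gm16976. Ptgdr is the neighbour of Ptger2, with 128735 bases and no protein-coding gene between them. Of these neighbours, Ptger2 had 278 to 733 counts and Ptgdr 0 in every mouse.

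By mean RPKM the order was Ltb4r1, Cysltr2, Cysltr1, Ptgir, Ptger2, Ptger4 and Ptger1. Mice 1 and 3 had this order. In mouse 2 Ltb4r1 was the third, and Ptger4 exceeded Ptger2. Among the 14384 genes with a length and a count, Ltb4r1 ranked 1368, Cysltr2 1409 and Cysltr1 1832 from the top. Ptgir ranked 3753, Ptger2 4795, Ptger4 5181 and Ptger1 9984.

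**Figure D2:**
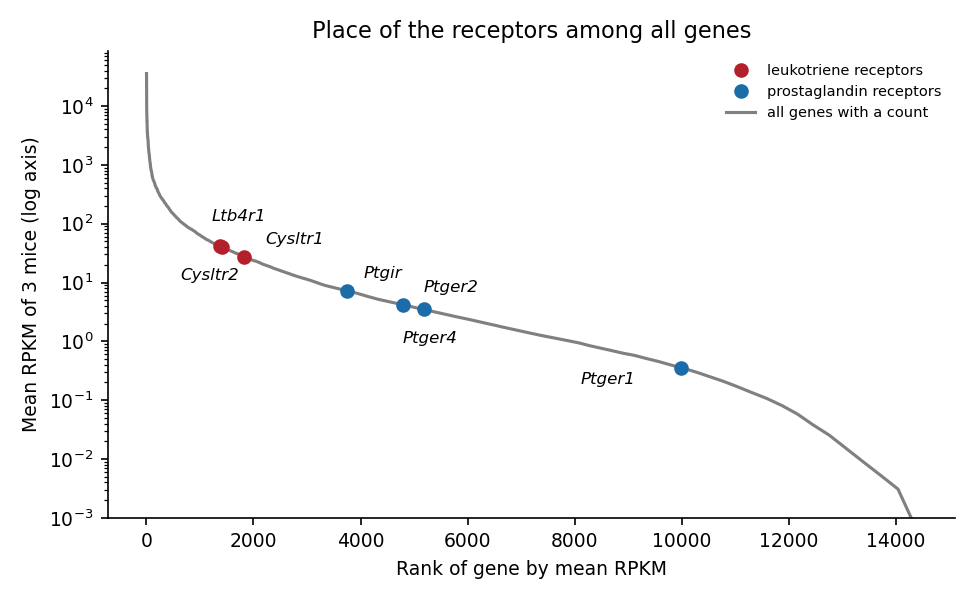
Mean RPKM of 3 mice (log axis) against rank for all genes with a length and a count (grey line), with leukotriene receptors in red and prostaglandin receptors in blue. The leukotriene receptors lie at ranks 1368 to 1832 and the prostaglandin receptors that were read at 3753 to 9984; Ptgdr, Ptgdr2 and Ptger3 are not drawn.

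Neighbours in this order were compared within each library as differences in log2(RPKM + 0.1), with an exact two-sided sign-flip test over the 3 mice. That test cannot give a p below 0.25, and 8 comparisons were made in all. Ltb4r1 and Cysltr2 did not differ beyond their spread (-0.01 ± 0.78; exact p = 1), but Ltb4r1 lay below Cysltr2 in 3 of 3 mice by the longest transcript (-0.72 ± 0.78), by coding length (-1.24 ± 0.78) and without division by length (-1.05 ± 0.78). Ptger4 and Ptger2 did not differ beyond their spread either (-0.22 ± 0.59; exact p = 0.75, adjusted 0.857). Cysltr1 lay below Cysltr2 in 3 of 3 mice by this measure (-0.58 ± 0.32; exact p = 0.25, adjusted 0.4). Counts undivided by length gave the opposite sign (0.26), as did division by coding length (0.07), so the order of these receptors depends on the gene model.

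Cysltr1 exceeded Ltb4r1 in 1 of 3 mice (-0.57 ± 0.79; exact p = 0.5, adjusted 0.667), and the sign turned under coding length (1.31) and without division (1.31). Cysltr1 exceeded Ptgir in 3 of 3 mice by 1.87 ± 0.49, and Ptger4 exceeded Ptger1 by 3.30 ± 1.22, each with an exact p of 0.25 and an adjusted p of 0.4. The difference of Ptger4 and Ptger1 moved with the settings, from 2.3 with a pseudocount of 0.5 to 4.03 without division by length, and was positive in 3 of 3 mice under each of these. Ptgir exceeded Ptger2 in 3 of 3 mice by 0.81 ± 0.59 (exact p = 0.25, adjusted 0.4), but under coding length the difference was -0.01. Ptgir exceeded Ptger4 in 3 of 3 mice, with Ptger4 at -1.03 ± 0.07 relative to Ptgir (exact p = 0.25, adjusted 0.4), and this difference was -0.06 without division by length. The planned comparisons with Ptger3, Ptgdr and Ptgdr2 give no fold, because these receptors had 0 counts. Ptger4 and Ptger2 lay above Ptger3, and Ptgir above Ptgdr, in 3 of 3 mice.

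The separation of the receptor classes did not depend on the gene model. The lowest leukotriene receptor exceeded the highest prostaglandin receptor by 2.58, 3.07 and 5.09 times in mice 1, 2 and 3 per exon length. Under coding length the ratios were 2.88, 1.52 and 2.86, and without division by length 2.49, 1.28 and 2.78. The RPKM of the 7 prostaglandin receptors summed to 15.4, 15.4 and 15.0 in mice 1, 2 and 3. The 3 leukotriene receptors summed to 93.5, 105 and 128 and made up 85.9%, 87.3% and 89.5% of the total of the 10. Prostaglandin E2 receptors held 6.53 ± 1.05% of it, the prostacyclin receptor 5.94 ± 1.26% and prostaglandin D2 receptors 0.

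**Figure D3:**
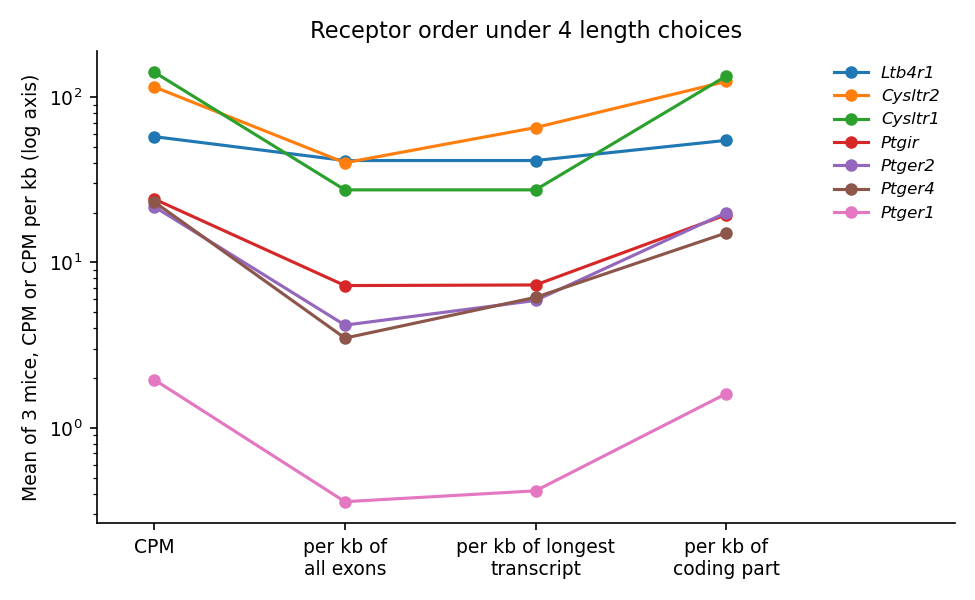
Mean of 3 mice of each receptor that was read (log axis), as CPM and as CPM per kb of all exons, of the longest transcript and of the coding part. The leukotriene receptors stay above the prostaglandin receptors on each scale, while the order within each class changes.

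The spread between mice was tested for 9175 genes with edgeR's quasi-dispersion F test and Benjamini-Hochberg adjustment. A gene was called variable where its spread exceeded the trend at its abundance with an adjusted p below 0.05, which held for 0.207% of those tested. Of the 6 detected receptors, 0 passed, and 0 had an unadjusted p below 0.05, as 401 of the 9175 genes did. With so few called among all genes, a count of 0 among 6 says little about the receptors. The count was also 0 by limma and among DESeq2 dispersion outliers. Cysltr1 and Ltb4r1 had the highest ratios to the abundance trend among the receptors tested, with log2 values of 1.31 and 1.18 (adjusted p = 0.977 for each). Ptgir (-2.97) and Ptger4 (-2.96) had the lowest and lay at the 11.8th and 11.9th percentile of all genes tested. Cysltr2 (-0.38) and Ptger2 (-0.88) lay between them.

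Ptger1 fell just short of the abundance filter. When the filter was set on scaled library sizes, an alternative chosen after the data were seen, Ptger1 was tested and had an unadjusted p of 0.0517 and an adjusted p of 0.976 by edgeR.

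**Figure D4:**
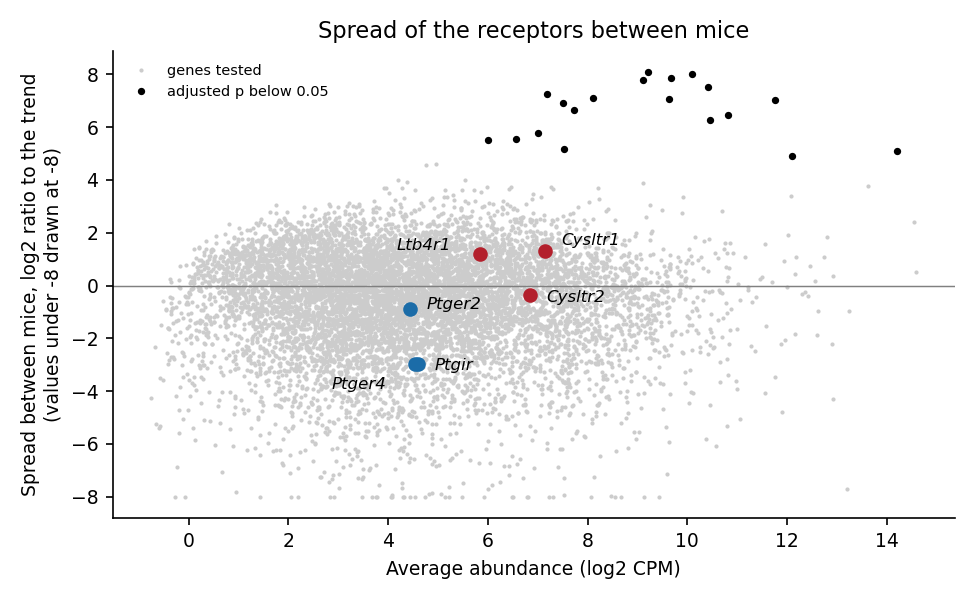
Ratio of each gene's spread between mice to the trend (log2) against average abundance (log2 CPM) for the 9175 genes tested, with the 19 genes at an adjusted p below 0.05 in black, leukotriene receptors in red and prostaglandin receptors in blue. The 6 receptors lie within the cloud of all genes, with Ptgir and Ptger4 low in it.

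Marker genes of other cell types that carry these receptors were read in the same libraries. Of 14 macrophage, dendritic cell and neutrophil markers 3 were detected, Lyz2 (26.2 ± 9.14 CPM), Xcr1 (31.6 ± 5.69) and Cd14 (6.59 ± 2.76), and the list summed to 55.3 to 77.7 CPM per mouse. Adgre1, Flt3, S100a8, S100a9 and Csf3r had 0 counts. Ltb4r1, which neutrophils carry, had 35.6 to 78.0 CPM in the same libraries. Whether cells of this list contributed to it was not tested.

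Of 7 eosinophil markers only Prg2 was detected (1.01, 12.3 and 8.94 CPM), and Epx, Siglecf, Ear1, Ear2 and Ear6 had 0 counts. Of 10 mast cell and basophil markers 3 were detected, Fcer1a (9.78 ± 8.82 CPM), Cpa3 (11.4 ± 6.64) and Hdc (24.7 ± 13.5), while Ms4a2, Gata2, Mcpt1, Mcpt4, Mcpt8 and Tpsb2 had 0. These lists summed to 1.01 to 12.3 and to 36.1 to 61.1 CPM per mouse.

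Summed marker levels had the same order of mice as some receptors. With 3 mice only a few orders are possible and many lists were compared, so a shared order says little. The B and plasma cell markers (10382, 31837 and 52759 CPM in mice 1, 2 and 3; 4 of 9 detected, with Ms4a1 and Pax5 among those at 0) had the order of mice of Cysltr1. Most of that sum was Igkc, the immunoglobulin kappa constant gene (4822, 18010 and 34158 CPM; more variable between mice by edgeR, adjusted p = 0.0211), and Jchain, the joining chain of secreted antibodies (5527, 13790 and 18473). The T cell sum (25.9, 27.4 and 28.0; 3 of 9) had this order too, through Cd6 (0.574, 3.24 and 7.17), while none of the 3 detected T cell markers had it.

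The NK cell and ILC1 markers (8.47, 244 and 55.4; 2 of 8, with Klra8 at 0) had the order of Cysltr2. Nearly all of this was Gzma, which encodes granzyme A (7.19, 229 and 48.2 CPM; more variable by edgeR, adjusted p = 0.00691). The eosinophil and the macrophage, dendritic cell and neutrophil lists had that order as well, and the ILC3 markers (325, 282 and 460; 4 of 7, with Ccr6 at 0) that of Ltb4r1 and Ptger2. The mast cell list, the epithelial and tuft cell markers (29.4, 9.84 and 25.9; 1 of 9, with Krt20, Cdh1, Pou2f3 and Trpm5 at 0), the stromal and endothelial markers (45.2, 39.0 and 39.3; 3 of 8, with Cdh5 and Kdr at 0) and the ILC2 markers themselves (23616, 18154 and 20680) had the order of Ptger1. No list had the order of Ptgir and Ptger4. The part of the cells behind these lists in the receptor levels was not tested.

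Among the other receptors for arachidonic acid products, 0 of 7 were detected. Oxgr1 had 4, 0 and 1 counts, and Tbxa2r (thromboxane A2), Ptgfr (prostaglandin F2α), Gpr17, Fpr2 and Gpr31b had 0. Of 26 receptors for other lipids and metabolites 7 were detected, led by Gpr65 (857 ± 113 RPKM), a proton sensor, Gpr183 (285 ± 29.2), the oxysterol receptor EBI2, and P2ry10 (169 ± 4.45). All 3 exceeded each leukotriene receptor in every mouse.

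The machinery downstream of the receptors was unevenly represented. Of 16 G protein subunits 10 were detected. Gna13 had 71.6 ± 11.1 RPKM, Gnai3, a Gi subunit, 67.8 ± 8.22, and Gnas, the Gs subunit, 44.1 ± 17.5. Gna15, of the Gq class, had 25.9 ± 3.99 and Gnaq itself 5.40 ± 0.593. Of the 9 adenylyl cyclases in the list, which make cyclic AMP, only Adcy7 was detected (7.19 ± 2.02 RPKM), and Adcy1, Adcy2, Adcy6 and Adcy8 had 0 counts.

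With the cyclases, 8 of 22 genes of cyclic AMP synthesis and effect were detected. Crem, the cyclic AMP-responsive modulator, had 1078 ± 129 RPKM and Prkar1a, a regulatory subunit of protein kinase A, 223 ± 17.7. Of 12 phosphodiesterases, which degrade the messenger, 5 were detected, led by Pde4b (23.7 ± 8.30), Pde3b (11.2 ± 1.96) and Pde7a (5.57 ± 0.799). On the calcium side 11 of 13 genes were detected, led by the store-operated channel Orai1 (43.7 ± 24.2), the IP3 receptor Itpr1 (8.51 ± 3.38) and the calcineurin subunit Ppp3ca (6.70 ± 0.716), and Plcb1 had 0 counts.

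Of 15 genes that switch receptors off, 11 were detected. Rgs2 reached 1462 ± 237 RPKM, Rgs1 345 ± 60.9 and Rgs10 87.7 ± 3.73, and Rgs16 had 0 counts. RGS proteins speed the return of G proteins to the inactive state. Of 14 transcripts induced by cyclic AMP 13 were detected, led by Crem, Areg (818 ± 51.0 RPKM) and Dusp1 (167 ± 118). All 6 type 2 effector genes were detected, led by Csf2, Il5 and Areg. Of the genes in these signalling lists that were tested for spread between mice, none passed (edgeR, adjusted p below 0.05). Genes of these lists below the abundance filter were not tested, so their spread is left undescribed.

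Of 26 genes of eicosanoid synthesis and transport 7 were detected. They were led by Ptgs2 (27.3 ± 11.8 RPKM), the inducible cyclooxygenase, Lta4h (19.9 ± 6.36), which makes leukotriene B4, and Hpgds (9.57 ± 2.17), the haematopoietic prostaglandin D2 synthase. Hpgds had 67.5, 71.4 and 45.6 CPM in the same 3 libraries in which both prostaglandin D2 receptors had 0 counts. Ltc4s, which makes the ligand of Cysltr1 and Cysltr2, and Ptgis, which makes that of Ptgir, had 0 counts. Alox5, the gene of 5-lipoxygenase, was not detected, with 29, 4 and 206 counts in mice 1, 2 and 3. Alox5ap was not detected either, with 1, 2 and 0 counts. Whether these cells make leukotriene B4 was not tested.

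**Figure D5:**
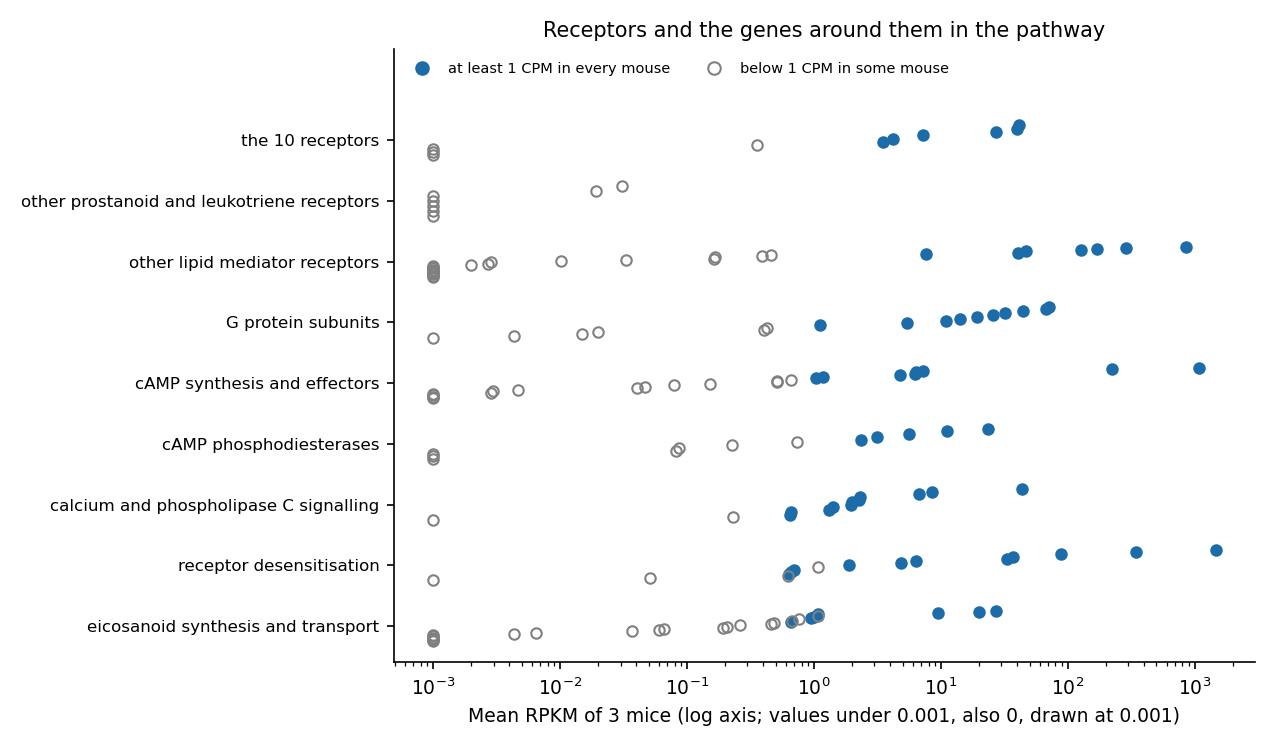
Mean RPKM of 3 mice (log axis) of each gene in the receptor set and the lists around it, 1 point per gene, filled where the gene reached 1 CPM in every mouse and open where it did not. The 6 detected receptors span 3.49 to 41.3 RPKM, within the range of detected G protein subunits and below Rgs2 and Crem.

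Genes of like level were sought for the 2 highest receptors, as those with the smallest root mean square difference in log2(RPKM + 0.1) over the 3 libraries. For Ltb4r1 these were Dnajb11 (0.0943), Psen2 (0.0969) and Ccm2 (0.108). For Cysltr2 they were B9d2 (0.0355), Tomm20 (0.0416) and Hagh (0.0505). With 3 libraries, such likeness describes level and little else.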

How the data were processed

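RNA of sorted ILC2s was made into libraries with a Clontech SMARTer Ultra Low Input kit, per the labels' protocols. The submitters' processing notes name STAR 2.3.0, CASAVA 1.8.2 and the mm10 build. They name no counting program or annotation. The authors deposited raw read counts per Entrez ID, without normalization. Of 27179 IDs, 25275 had a symbol in RefSeq's GRCm38.p6 table (mm10 is this assembly), and 24861 had a GENCODE M21 exon length. The 1904 IDs without a symbol stayed in the library sizes. Total counts were 22112425, 17819551 and 26374248.

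CPM and the test of spread used edgeR 4.0.16 (R 4.3.3; TMM factors 1.03, 0.987 and 0.989), with DESeq2 1.42.0 and limma 3.58.1 as alternatives. The fit had an intercept only, on genes passing filterByExpr (minimum count 10), and was tested on simulated data. Exon length was the union of all GENCODE exons of a gene. Overlaps were taken from GENCODE exons on either strand.

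The receptors and gene lists were chosen with earlier results of these data known. Named genes were the receptors, other eicosanoid receptors, the 3 highest members of each list by RPKM, members without counts that define a list, genes sharing exons with a receptor and genes of like level. Gata3, Il1rl1, Il23r, Il1r1, Gna15, Gnaq, Gm5127, Gm9199, Cd6, Cd79a, Alox5, Alox5ap and the promoter motifs were added after values were seen. The closing section gives the alternatives that moved a result. Some genes of the lists are not reported here.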

Additional observations from a re-analysis of the deposited data

How the results depend on the processing

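No paired analysis was possible because only 1 group exists. The detected receptors numbered 6 under both other scalings, minima of 0.5 and 5 CPM and a minimum of 10 counts, and 6 to 7 without each mouse in turn, with Ptger1 added without mouse 2. More variable receptors numbered 0 under all settings run: both other scalings, no filter, a mean of at least 5 CPM, the added filter on scaled sizes, a robust prior, limma, DESeq2 and leaving out each mouse; a robust prior called 0 genes of any kind, with 388 at an unadjusted p below 0.05.

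Level differences between receptors (log2, planned settings) moved mainly with the gene model. Without division by length, Ptger4 minus Ptger2 was 0.13 in place of -0.22, Ptger4 minus Ptgir -0.059 in place of -1.03, Cysltr1 minus Cysltr2 0.26 in place of -0.58 and Cysltr1 minus Ltb4r1 1.31 in place of -0.57. By the longest transcript the first 3 were 0.091, -0.25 and -1.28. By coding length, Ptger4 minus Ptgir was -0.36, Cysltr1 minus Cysltr2 0.074, Cysltr1 minus Ltb4r1 1.31 and Ptgir minus Ptger2 -0.011. Ltb4r1 minus Cysltr2 was -1.05 without division, -0.72 by the longest transcript and -1.24 by coding length, in place of -0.01. Cysltr1 minus Ptgir was 2.50, 1.85 and 2.74, in place of 1.87, and Ptger4 minus Ptger1 4.03, 3.95 and 3.67, in place of 3.30. Pseudocounts of 0.5 and 0.01 gave 2.3 and 3.81 for the latter, and 0.5 gave -0.96 for Ptger4 minus Ptgir. Without each mouse in turn, Ptger4 minus Ptger2 was -0.51 to 0.082 (positive without mouse 3), Ptger4 minus Ptgir -1.08 to -1.01, Cysltr1 minus Cysltr2 -0.74 to -0.43, Cysltr1 minus Ltb4r1 -1.0 to -0.23 and Ltb4r1 minus Cysltr2 -0.28 to 0.44 (positive without mouse 2), and Ptger4 minus Ptger1 2.72 (without mouse 2) to 3.93 (without mouse 1). Both scalings and the pseudocount of 0.01 changed no direction. Statements on the receptors at 0 are limited by depth to the level of 3 counts, and for Ptgdr and Ptgdr2 also by the unknown treatment of shared exon bases.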
